A study of Homo sapiens with 6 samples.

Results

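Integrin beta 1 (ITGB1), the exchange factor TIAM1, the small GTPase RAC1 and 6 genes that work around them were followed in KYSE30 cells after siRNA against RAB23. KYSE30 is an established human cell line from a squamous cell carcinoma of the oesophagus. The 9 genes were chosen by name, as a proposed route by which RAB23, a small GTPase of membrane traffic, may act in squamous carcinoma invasion; the other 6 are VAV2, DOCK1, ARHGEF7, GIT1, PAK1 and PAK2. All 9 were found among the 58735 genes of the table, and all 9 passed the filter on low values that left 14352 genes. RNA sequencing of whole cultures gave 6 libraries in 3 groups of 2: a control siRNA (si-NC) and 2 siRNAs that target RAB23, si-RAB23-1 and si-RAB23-9. Every group received siRNA at 100 nM with the same transfection reagent, and si-NC served as the reference of both RAB23 siRNAs. No untransfected culture was analysed here, so the effect of transfection itself is shared by all groups. All libraries come from 1 cell line, and its transcript levels say nothing of protein, of integrin on the cell surface or of RAC1 bound to GTP.

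Integrins are paired alpha and beta receptors for the extracellular matrix, and beta 1 is the subunit shared by the collagen, laminin and fibronectin receptors of epithelial cells. Bound integrins gather kinases and adaptors, which bring exchange factors to the membrane, and these load RAC1 with GTP. TIAM1 and VAV2 are exchange factors of the Dbl family, DOCK1 (DOCK180) works with an ELMO partner, and ARHGEF7 (beta-PIX) sits on the scaffold GIT1 beside the PAK kinases. RAC1 with GTP switches on PAK1 and PAK2 and the WAVE and Arp2/3 complexes, which build the actin network of lamellipodia. In squamous epithelium beta 1 integrins hold basal cells to the basement membrane, and the same parts serve spreading and migration.

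With both siRNAs RAC1 transcripts rose and ITGB1 transcripts fell. RAC1 was 1.44-fold of si-NC under si-RAB23-1 and 1.40-fold under si-RAB23-9 in mean FPKM (fragments per kilobase of transcript, scaled to library size), and the 2 siRNAs did not differ beyond their error. ITGB1 fell by 33.9% under si-RAB23-1 and fell by 12.5% under si-RAB23-9, and the 2 siRNAs differed. No change of TIAM1 passed the test in any comparison. VAV2 and GIT1 rose under si-RAB23-9 and ARHGEF7 rose under si-RAB23-1, all by 1.12- to 1.2-fold, while DOCK1, PAK1 and PAK2 did not pass the test against si-NC. At an adjusted p under 0.05, 3 of 9 genes were called under si-RAB23-1 and 4 of 9 under si-RAB23-9; over all genes tested 15.4% (8.13% higher, 7.26% lower) and 13.3% (7.56% higher, 5.69% lower) were called. Between the 2 siRNAs 3 of 9 were higher and 1 of 9 lower with si-RAB23-9, against 11.1% and 9.89% of all genes tested. All 9 genes had a mean of 5.58 FPKM or more over the 6 libraries. A separate fit of the 7534 genes at a mean FPKM of at least 5, adjusted over those genes alone, called a larger share. How much of that came from expression level and how much from the refit was not tested. In it 1271 genes were higher and 972 lower under si-RAB23-1. The counts were 1209 and 855 under si-RAB23-9, and 1425 and 1383 between the siRNAs.

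The libraries held 17211025 to 24178125 reads, as recovered from the table, and 13576 to 13700 genes at 1 FPKM or more. RAB23 itself was at 3.27 and 3.33 FPKM in the si-NC libraries, 1.03 and 1.10 under si-RAB23-1 and 1.18 and 1.27 under si-RAB23-9, so the targeted transcript was lower in all 4 libraries labelled as knockdown. Both libraries of a group are described as biological replicates, with no word on separate cultures, so the p-values reflect library-to-library spread that may be technical. Of 13 markers of squamous epithelium 10 were at 1 FPKM or more, led by SFN. Their summed level was 468.9 to 471.9 FPKM under si-NC, 554.1 to 579.9 under si-RAB23-1 and 484.1 to 485.4 under si-RAB23-9. The simple epithelial keratins KRT8 and KRT18 were the only 2 of 9 columnar markers at that level, and the summed columnar level was 1036 to 1062 FPKM under si-NC, 1034 to 1036 under si-RAB23-1 and 921.7 to 928.6 under si-RAB23-9. None of 9 leukocyte markers, 1 of 9 fibroblast markers and 1 of 7 endothelial markers reached 1 FPKM; COL1A2, DCN, LUM, PDGFRA, THY1, CD3D, MS4A1 and KDR were listed at 0 in every library. The summed endothelial level was 3.92 to 3.99 FPKM under si-NC, 1.71 to 2.25 under si-RAB23-1 and 2.88 to 3.39 under si-RAB23-9. The part of the marker levels in the results below was not tested. In RNA from whole cultures, fewer cells of a kind and less RNA per cell cannot be told apart.

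ITGB1 (ENSG00000150093, chr10:32900319-33005792 of GRCh38, minus strand) stood at 61.3 and 63.0 FPKM under si-NC, 41.8 and 40.4 under si-RAB23-1, and 55.4 and 53.4 under si-RAB23-9. The 3 pairs of libraries did not overlap: si-NC was highest, si-RAB23-9 lay between, and si-RAB23-1 was lowest. Group means were 62.1 ± 1.23, 41.1 ± 0.960 and 54.4 ± 1.41 FPKM (SD, n = 2 each), from 4160 to 8790 reads a library. On the log2(FPKM + 1) scale ITGB1 fell by 0.58 under si-RAB23-1 (SE 0.0373, 95% interval -0.68 to -0.49, limma adjusted p = 0.00211). As large a change, in either direction, was seen in 3.58% of all genes tested. With si-RAB23-9 it fell by 0.19 (SE 0.0373, interval -0.28 to -0.10, limma adjusted p = 0.0294), and 31.2% of all genes tested changed at least as much. The first call held with any single library left out, at limma adjusted p-values of 0.0117 to 0.0295. The second was lost without either si-NC library or either si-RAB23-9 library, at limma adjusted p-values from 0.101 to 0.170. Read against each other, ITGB1 was 0.40 higher under si-RAB23-9 than under si-RAB23-1 (interval 0.30 to 0.49, limma adjusted p = 0.00324), a difference that also held with any library left out.

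An siRNA can lower transcripts other than its target when its seed pairs with a 7-base match in their 3′ UTR. The siRNA sequences were not used here; instead 3 heptamers, known from earlier results of these data to go with the changes, were looked up in the annotated 3′ UTRs of the 9 genes on the transcript strand only. The windows below are shown because ITGB1 and DOCK1 were the 2 members that held one, and RAB23 held 2 copies of the heptamer of ITGB1. Each line reads 5′ to 3′ along the transcript (GENCODE 29, GRCh38), with the heptamer in capitals.
ITGB1, minus strand, heptamer at chr10:32901068-32901074: acatgactgatGACATATctgaaagacaag
DOCK1, plus strand, heptamer at chr10:127452473-127452479: aatagacttaaAAGTTAAtcattgacaacg
RAB23 upstream copy, minus strand, heptamer at chr6:57189788-57189794: gataaactctaGACATATattttgcaaaat
RAB23 downstream copy, minus strand, heptamer at chr6:57188043-57188049: tcttttgcgtaGACATATcgctgtggaata
GACATAT stood in 3′ UTRs of 928 (8.51%) of the 10908 tested genes with an annotated 3′ UTR that were scanned. Of those carriers 25.6% were called lower under si-RAB23-1, against 7.11% of the other 9980 genes; under si-RAB23-9 the shares were 9.70% and 6.36%. In ITGB1 the single copy began at base 496 of a 3′ UTR of 1178 bases, and ITGB1 is among the carriers that fell. AAGTTAA stood in 2025 genes (18.6%), of which 17.4% were called lower under si-RAB23-9 against 4.20% of the others. The copy in DOCK1 began at base 1046 of 1090, and DOCK1 was 6.23 and 6.69 FPKM under si-RAB23-9 beside 6.28 and 6.70 under si-NC, and those pairs overlapped. TCGGAGA, in 2.59% of genes scanned, had 20.8% and 23.7% of its carriers called higher with the 2 siRNAs, against 9.39% and 8.98% of the others. RAC1, TIAM1, VAV2, ARHGEF7, GIT1, PAK1 and PAK2 held none of the 3 letter strings in their annotated 3′ UTRs, which says nothing of other matches. The heptamers were chosen on these libraries, so the shares support no finding, and the part of any match in the ITGB1 values was not tested.

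The alpha subunits that pair with beta 1 were measured beside it. Of 12 alpha genes 5 passed the filter (ITGA2, ITGA3, ITGA5, ITGA6 and ITGAV, the last named outside the naming rule after its values were seen), and the other 7 stayed below 0.283 FPKM. With si-RAB23-1, 2 of these 5 fell, ITGA5 of the fibronectin receptor by 0.25 (limma adjusted p = 0.0408) and ITGAV by 0.14 (limma adjusted p = 0.0454); the median over the 5 was -0.11, against 0.0083 over all genes tested. With si-RAB23-9, 3 of 5 fell and the median was -0.27, against 0.0060 over all genes tested: ITGA2 of the collagen receptor by 0.34 (limma adjusted p = 0.0112), ITGA3 by 0.35 (limma adjusted p = 0.0150) and ITGA6 by 0.27 (limma adjusted p = 0.0196), both of laminin receptors. Each of these 5 calls against si-NC was lost with at least 3 of the 6 single libraries left out. Of all genes tested, 7.26% were called lower under si-RAB23-1 and 5.69% under si-RAB23-9. The summed FPKM of all 12 alpha genes was 302.5 and 295.9 under si-NC, 304.3 and 290.5 under si-RAB23-1, and 263.0 and 259.8 under si-RAB23-9. ITGB1 per summed alpha FPKM was therefore 0.202 and 0.213 under si-NC, 0.137 and 0.139 under si-RAB23-1, and 0.211 and 0.205 under si-RAB23-9. The si-RAB23-9 ratios lay within the si-NC range and the si-RAB23-1 ratios below it. The ratios compare transcript levels and do not measure how much of each alpha subunit pairs with beta 1.

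RAC1 (ENSG00000136238, chr7:6374523-6403977, plus strand), the GTPase at the centre of the route, was the most abundant of the 9 per length of transcript. It stood at 105.5 and 100.9 FPKM under si-NC, 148.7 and 148.4 under si-RAB23-1, and 143.3 and 146.0 under si-RAB23-9. All 4 knockdown libraries lay above both si-NC libraries with no overlap. Means were 103.2 ± 3.25, 148.6 ± 0.257 and 144.6 ± 1.95 FPKM (SD, n = 2 each), on 6141 to 10273 reads a library. On the log2(FPKM + 1) scale RAC1 rose by 0.52 under si-RAB23-1 (SE 0.0329, interval 0.44 to 0.60, limma adjusted p = 0.00211) and by 0.48 under si-RAB23-9 (SE 0.0329, interval 0.40 to 0.57, limma adjusted p = 0.00265). Both calls held with any library left out, at limma adjusted p-values of 0.0119 to 0.0295 and 0.00697 to 0.0360. Changes at least as large as these 2 rises, in either direction, were seen in 4.86% and 5.67% of all genes tested. The difference between the siRNAs was -0.04 (interval -0.12 to 0.04, limma adjusted p = 0.449). RAC1 is thus 1 of 420 genes, 2.93% of those tested, that rose with both siRNAs against the si-NC libraries they share, and ITGB1 is 1 of 218 (1.52%) that fell with both.

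The ratio of RAC1 to ITGB1 in FPKM moved from 1.72 and 1.60 under si-NC to 3.56 and 3.67 under si-RAB23-1, and to 2.59 and 2.74 under si-RAB23-9. The ratio did not overlap between any 2 groups. Among the RAC genes RAC1 made up 75.5% to 82.4% of summed FPKM. RAC2, the GTPase best known from blood cells, lay at 15.9 to 17.7 FPKM, and RAC3 at 15.0 to 20.8 FPKM. RAC3 rose by 0.33 under si-RAB23-9 (limma adjusted p = 0.0150), a call lost in 4 of 6 leave-outs, and stood at -0.047 under si-RAB23-1. Processed copies of RAC1 in the genome could share reads with it. None of the RAC1 pseudogenes in the table held more than 85 reads in a library, and RAC1P2, at up to 6.15 FPKM, stood at 0.16 and 0.52 without passing the test (limma adjusted p = 0.837 and 0.501). How reads that match several places were counted is not given in the sources used here.

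**Figure D1:**
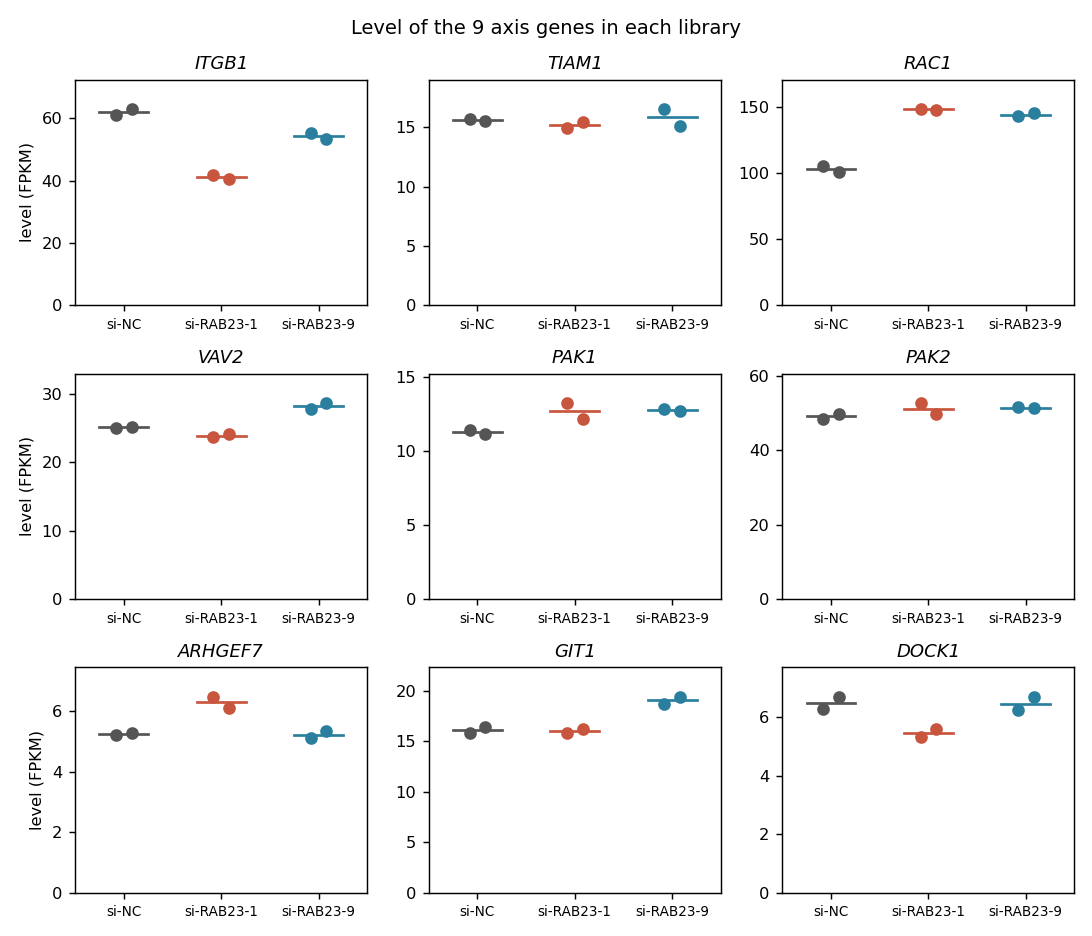
FPKM of each of the 9 genes in the 6 libraries, 1 panel a gene with its own axis from 0; points are single libraries and the horizontal bars are group means (n = 2). RAC1 lies at 143.3 to 148.7 FPKM in the 4 knockdown libraries and at 100.9 to 105.5 under si-NC, ITGB1 is lowest under si-RAB23-1, and TIAM1 stays between 15.0 and 16.5 FPKM in all 6.

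TIAM1 (ENSG00000156299, chr21:31118416-31559977, minus strand), the exchange factor named with integrin beta 1 and RAC1 in this route, showed no detectable change. It stood at 15.7 and 15.6 FPKM under si-NC, 15.0 and 15.4 under si-RAB23-1, and 16.5 and 15.1 under si-RAB23-9. The si-RAB23-9 pair spread on both sides of the si-NC pair, and the si-RAB23-1 pair lay just below it. The differences from si-NC were -0.04 (interval -0.16 to 0.09, limma adjusted p = 0.658) and 0.016 (interval -0.11 to 0.14, limma adjusted p = 0.875). With 2289 to 3463 reads a library these intervals bound any TIAM1 change below 0.17 on the log2 scale. TIAM1 made up 91.5% to 92.9% of the summed FPKM of TIAM1 and TIAM2.

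VAV2 (ENSG00000160293, chr9:133761894-133992604, minus strand), an exchange factor switched on by tyrosine phosphorylation, moved under si-RAB23-9. It was at 25.0 and 25.2 FPKM under si-NC, 23.7 and 24.1 under si-RAB23-1, and 27.8 and 28.7 under si-RAB23-9. The si-RAB23-9 libraries lay above all others and the si-RAB23-1 libraries below all others. It rose by 0.16 under si-RAB23-9 (SE 0.0356, interval 0.07 to 0.25, limma adjusted p = 0.0389). That call was lost without either si-NC library or either si-RAB23-9 library, at limma adjusted p-values from 0.123 to 0.207. With si-RAB23-1 the difference was -0.07 (interval -0.16 to 0.021, limma adjusted p = 0.258). VAV2 made up 91.7% to 94.2% of summed VAV1, VAV2 and VAV3.

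DOCK1 (ENSG00000150760, chr10:126905409-127452517, plus strand), which is recruited through the adaptor CRK, was at 6.28 and 6.70 FPKM under si-NC, 5.33 and 5.60 under si-RAB23-1, and 6.23 and 6.69 under si-RAB23-9. Both si-RAB23-1 libraries lay below the other 4, which overlapped. The difference under si-RAB23-1 was -0.21 (interval -0.35 to -0.07) and lay short of the threshold (limma adjusted p = 0.0624); with voom on the recovered reads it passed under both scalings (adjusted p = 0.00318 and 0.00525). With si-RAB23-9 it was -0.0058 (interval -0.15 to 0.14, limma adjusted p = 0.959). DOCK1 rested on 719 to 1220 reads a library. It made up 37.6% to 48.7% of the summed FPKM of DOCK1, DOCK2 and DOCK5, and DOCK5, at 6.89 to 8.76 FPKM, lay above DOCK1 in all 6 libraries. Of its ELMO partners ELMO3 was at 19.3 to 23.9 FPKM and ELMO2 at 3.55 to 4.24, while ELMO1 did not exceed 0.0126 FPKM.

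ARHGEF7 (ENSG00000102606, chr13:111114559-111305737, plus strand) and GIT1 (ENSG00000108262, chr17:29573469-29594054, minus strand), the partners of the PIX and GIT complex, moved with different siRNAs. ARHGEF7 was at 5.21 and 5.28 FPKM under si-NC, 6.48 and 6.10 under si-RAB23-1, and 5.10 and 5.34 under si-RAB23-9. The si-RAB23-1 libraries lay above the rest, and the si-RAB23-9 libraries on both sides of si-NC. It rose by 0.22 under si-RAB23-1 (SE 0.0507, interval 0.10 to 0.35, limma adjusted p = 0.0390), a call lost without any 1 of the 6 libraries, at limma adjusted p-values from 0.0542 to 0.167. With si-RAB23-9 the difference was -0.0053 (interval -0.13 to 0.12, limma adjusted p = 0.957). Its relative ARHGEF6 (alpha-PIX) was nearly undetected, and ARHGEF7 made up 99.7% or more of their sum.

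GIT1 was at 15.8 and 16.4 FPKM under si-NC, 15.9 and 16.2 under si-RAB23-1, and 18.7 and 19.4 under si-RAB23-9. The si-RAB23-9 libraries lay above the other 4, and the si-RAB23-1 libraries within the si-NC range. It rose by 0.23 under si-RAB23-9 (SE 0.0414, interval 0.12 to 0.33, limma adjusted p = 0.0232). That call too was lost without either si-NC library or either si-RAB23-9 library, at limma adjusted p-values from 0.0913 to 0.142. With si-RAB23-1 the difference was -0.0070 (interval -0.11 to 0.10, limma adjusted p = 0.927). GIT1 made up 88.4% to 92.0% of summed GIT1 and GIT2. ANKRD13B on the opposite strand, whose span overlaps that of GIT1 without sharing exon bases, was at 4.16 and 4.17 FPKM under si-NC, 7.13 and 7.01 under si-RAB23-1, and 7.37 and 7.89 under si-RAB23-9. ANKRD13B rose with both siRNAs, by 0.64 and 0.74 (limma adjusted p = 0.00309 and 0.0025), whereas GIT1 was called under si-RAB23-9.

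The kinases downstream of RAC1 moved little. PAK1 (ENSG00000149269, chr11:77321707-77474635, minus strand) was at 11.4 and 11.2 FPKM under si-NC, 13.3 and 12.2 under si-RAB23-1, and 12.8 and 12.7 under si-RAB23-9. All 4 knockdown libraries were above both si-NC libraries. The differences were 0.16 (interval 0.04 to 0.28, limma adjusted p = 0.0893) and 0.16 (interval 0.04 to 0.29, limma adjusted p = 0.0877); neither passed the test. PAK2 (ENSG00000180370, chr3:196739857-196832647, plus strand), the widely expressed member of the family, was at 48.4 and 49.8 FPKM under si-NC, 52.7 and 49.6 under si-RAB23-1, and 51.5 and 51.3 under si-RAB23-9. The si-RAB23-1 pair overlapped the si-NC pair. The differences of 0.06 (interval -0.04 to 0.16, limma adjusted p = 0.387) and 0.07 (interval -0.03 to 0.16, limma adjusted p = 0.347) did not pass the test. PAK2 made up 79.9% to 81.7% of the summed FPKM of PAK1, PAK2 and PAK3.

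**Figure D2:**
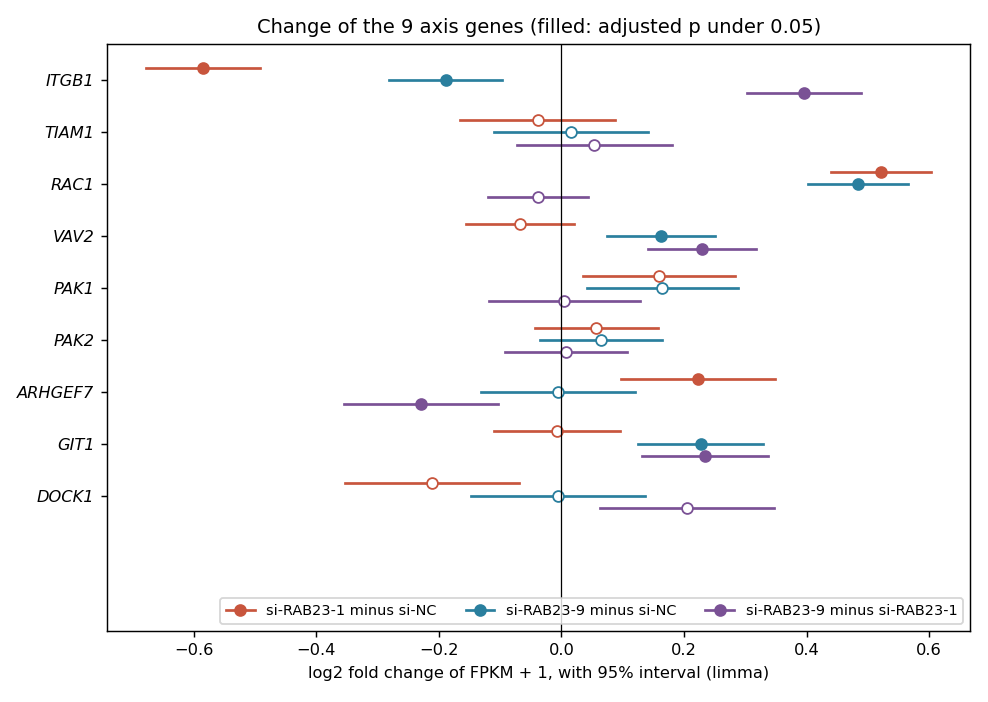
Difference in log2(FPKM + 1) of each of the 9 genes in the 3 comparisons, with 95% intervals from limma as horizontal bars; filled points passed an adjusted p of 0.05, and the vertical line is 0. RAC1 lies near 0.5 with both siRNAs, ITGB1 at -0.58 and -0.19, and the intervals of TIAM1 and PAK2 cross 0 in all 3 comparisons.

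Beside each other, the 2 siRNAs differed at 4 of the 9 genes. ITGB1, VAV2 and GIT1 were higher under si-RAB23-9 than under si-RAB23-1, by 0.40, 0.23 and 0.23, and ARHGEF7 was lower by 0.23 (limma adjusted p = 0.00324, 0.0117, 0.0167 and 0.0304). VAV2 lost the call without si-RAB23-9 replicate 1 or 2, the larger limma adjusted p being 0.0843. GIT1 lost it without those or si-RAB23-1 replicate 1, at 0.0631 to 0.104 by limma adjusted p. ARHGEF7 kept it only without si-RAB23-1 replicate 2, and the others gave limma adjusted p-values of 0.0653 to 0.143. DOCK1 differed by 0.21 (interval 0.06 to 0.35), short of the threshold (limma adjusted p = 0.0565). It passed at a mean FPKM of at least 5 (limma adjusted p = 0.0400). By voom, added after the data were seen, it passed under both scalings (adjusted p = 0.00426 and 0.0089). For TIAM1 (0.054, interval -0.07 to 0.18), RAC1, PAK1 (0.0050, interval -0.12 to 0.13) and PAK2 (0.0078, interval -0.09 to 0.11) the intervals bound any difference below 0.20 on the log2 scale. The median over the 9 genes was -0.0070, 0.065 and 0.054 in the 3 comparisons, against 0.0083, 0.0060 and 0.00023 over all genes tested.

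Counted by whether the libraries overlap, 7 of 9 genes were apart from si-NC under si-RAB23-1 and 6 of 9 under si-RAB23-9. Most genes did the same: 60.2% and 61.2% of all genes tested were apart in those comparisons (31.7% and 32.5% higher, 28.5% and 28.7% lower). With si-RAB23-1, RAC1, PAK1 and ARHGEF7 lay above and ITGB1, TIAM1, VAV2 and DOCK1 below. With si-RAB23-9, RAC1, VAV2, PAK1, PAK2 and GIT1 lay above and ITGB1 below. RAC1, PAK1 and ITGB1 were apart in the same direction with both, and PAK1 passed neither test. Both comparisons use the same si-NC libraries, and the share of all genes tested that did the same was not counted.

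**Figure D3:**
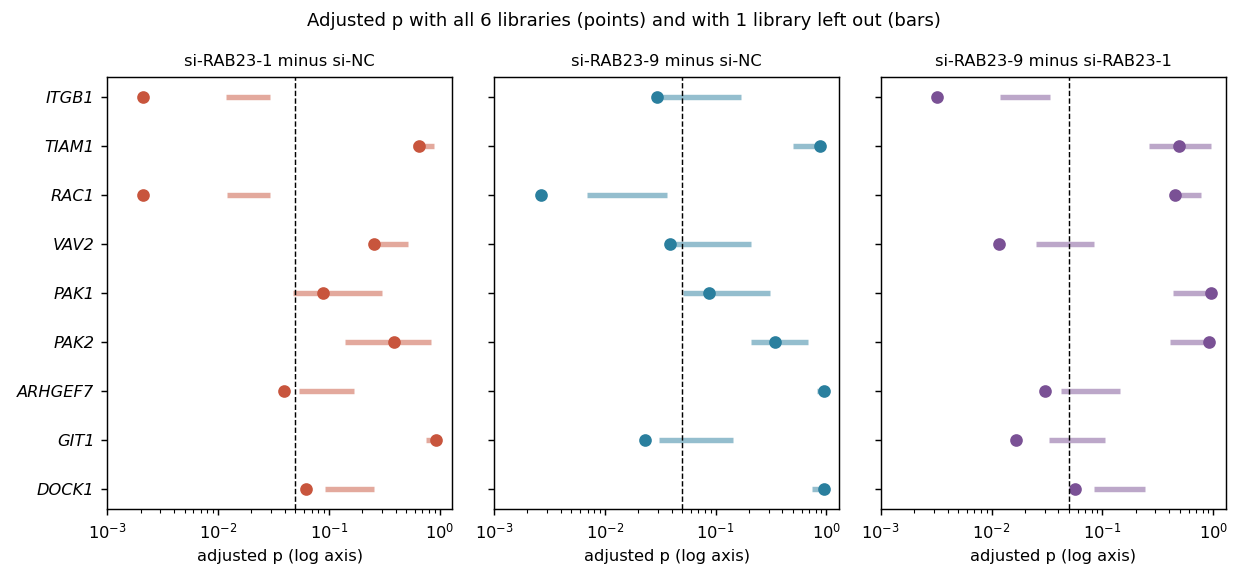
limma adjusted p (log axis) of the 9 genes in the 3 comparisons; points are the fit on all 6 libraries, bars span the lowest to highest value with 1 library left out, and the dashed line is 0.05. RAC1 against si-NC and ITGB1 under si-RAB23-1 stay left of the line throughout, while ARHGEF7 under si-RAB23-1 has its point left of it and its bar right of it, between 0.0542 and 0.167.

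In the order of FPKM levels, si-NC cells held RAC1 above ITGB1, PAK2, VAV2, GIT1, TIAM1, PAK1, DOCK1 and ARHGEF7. GIT1 and TIAM1, 0.480 FPKM apart, were the only neighbours in that order whose means lay within their summed SD (0.568 FPKM). With si-RAB23-9 the order was the same. With si-RAB23-1 PAK2 came above ITGB1, by 10.0 FPKM, and ARHGEF7 above DOCK1, by 0.825 FPKM. By likeness of profile, the root mean square difference of centred log2(FPKM + 1) over the 6 libraries, the genes nearest to ITGB1 were ZFYVE16 (0.028), ARHGAP11A (0.033) and GFPT1 (0.035). Nearest to RAC1 were SETD7 (0.021), FAM32A (0.029) and C6orf141 (0.036). Nearest to TIAM1, a flat profile, were ADD1 (0.0076), NBPF3 (0.0083) and TLCD1 (0.011). These values describe 6 libraries and carry no test.

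Around these 9 genes, 135 further genes of the pathway passed the filter, in 11 lists by role. With si-RAB23-1, 19 were higher and 13 lower (23.7%), and under si-RAB23-9, 13 were higher and 19 lower (23.7%), against 15.4% and 13.3% of all genes tested. Of these calls 4 of 32 and 3 of 32 held with any library left out: ANKRD27, PIK3CB, CTTN and WASF2 under si-RAB23-1, and GRB2, PIK3CB and LIMK1 under si-RAB23-9. Over all genes tested 1167 were higher and 1042 lower under si-RAB23-1. Voom on recovered reads scaled by library totals gave 1622 and 2178. In a separate fit of the 7534 genes at a mean FPKM of at least 5, 1271 were higher and 972 lower under si-RAB23-1. With si-RAB23-9 the counts were 1209 and 855. These are larger shares than the 23.7% of the 135 genes, though they come from a different fit, adjusted over fewer genes. The part of expression level in the shares of the 135 genes was not tested.

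Next to the receptor, 3 of 14 regulators of integrin activity rose and 1 fell under si-RAB23-1, and 1 fell under si-RAB23-9 (medians 0.11 and 0.0075). FLNA, which binds integrin tails, rose by 0.24 under si-RAB23-1 (limma adjusted p = 0.0212), and FERMT1, kindlin-1, by 0.35 (limma adjusted p = 0.00978). LIMS1 (PINCH1), a partner of integrin-linked kinase, fell by 0.36 and 0.53 with the 2 siRNAs (limma adjusted p = 0.0133 and 0.00594). Among 16 genes of integrin endocytosis and recycling 2 rose under si-RAB23-1 and 2 fell under si-RAB23-9 (medians 0.012 and -0.028). ANKRD27, a RAB21 exchange factor, rose by 0.48 under si-RAB23-1 (limma adjusted p = 0.00461) and RAB5A by 0.29 (limma adjusted p = 0.0167). With si-RAB23-9, RAB21, a carrier of beta 1 integrins, fell by 0.25 (limma adjusted p = 0.0311) and RAB11FIP1 by 0.32 (limma adjusted p = 0.0131).

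Between receptor and exchange factors, 21 focal adhesion adaptors and kinases had 5 higher and 4 lower under si-RAB23-1 and 4 higher and 3 lower under si-RAB23-9 (medians 0.039 and 0.015). PIK3CB, a catalytic subunit of PI 3-kinase, fell by 0.42 and 0.47 (limma adjusted p = 0.0047 and 0.00392). The adaptor NCK1 fell by 0.47 under si-RAB23-1 (limma adjusted p = 0.00876), and the adaptor GRB2 fell by 0.38 under si-RAB23-9 (limma adjusted p = 0.00425). CAV1, the caveolar coat protein, went opposite ways, up by 0.41 under si-RAB23-1 and down by 0.37 under si-RAB23-9 (limma adjusted p = 0.00817 and 0.0112).

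Of 21 other exchange factors, not all of which act on RAC1, 1 rose under si-RAB23-1 (DOCK6). With si-RAB23-9, 1 rose (PLEKHG4) and 2 fell (DEF6 and NET1). The medians with the 2 siRNAs were -0.016 and -0.055. Of 12 GTPase-activating proteins, which turn off RAC1 or related GTPases, 2 rose and 1 fell under si-RAB23-1. With si-RAB23-9, 2 rose (medians -0.027 and 0.047 with the 2 siRNAs). ARHGAP35 rose by 0.19 and 0.20 (limma adjusted p = 0.0194 and 0.0197), and its 3′ UTR held TCGGAGA. ABR fell by 0.22 under si-RAB23-1 and rose by 0.17 under si-RAB23-9 (limma adjusted p = 0.0208 and 0.0486). Of 8 genes that sequester or turn over RAC1, HACE1, a ubiquitin ligase for GTP-bound RAC1, fell by 0.44 under si-RAB23-1 (limma adjusted p = 0.0289) and XIAP by 0.26 under si-RAB23-9 (limma adjusted p = 0.0342), where PLCG1 rose; HACE1 held 2 copies of GACATAT. The medians were 0.10 and -0.023.

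Among 11 other PAK genes and substrates 3 rose and 1 fell under si-RAB23-1, and 2 rose and 3 fell under si-RAB23-9 (medians 0.057 and 0.066). LIMK1, the cofilin kinase that PAK1 phosphorylates, rose by 0.28 and 0.42 (limma adjusted p = 0.0102 and 0.00425), and its relative LIMK2 fell by 0.36 under si-RAB23-9 (limma adjusted p = 0.0107). Cortactin (CTTN), an actin branch protein, rose by 0.38 and 0.14 (limma adjusted p = 0.00315 and 0.0372), and SSH1, a cofilin phosphatase, by 0.36 under si-RAB23-1 (limma adjusted p = 0.0180).

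At the actin end, 1 of 10 WAVE complex genes and partners rose and 1 fell with each siRNA (medians -0.038 and -0.032). WASF2 (WAVE2) fell by 0.39 under si-RAB23-1 (limma adjusted p = 0.00363), WASF1 by 0.36 under si-RAB23-9 (limma adjusted p = 0.0112), and the small subunit BRK1 rose by 0.21 and 0.27 (limma adjusted p = 0.0331 and 0.0169). Of the 10 Arp2/3 subunit genes, ARPC1A (0.29) and ARPC4 (0.17) rose under si-RAB23-1, and ACTR3 (-0.30) and ARPC5 (-0.16) fell under si-RAB23-9 (limma adjusted p = 0.0153, 0.0358, 0.0411 and 0.0369). Between the siRNAs 7 of 10 were lower under si-RAB23-9, with a median of -0.17, against 9.89% of all genes tested. Each of those 7 calls was lost with at least 2 of the 6 single libraries left out, and all 7 were lost by limma without si-RAB23-9 replicate 1 and again without si-RAB23-9 replicate 2. ACTR3, ARPC5, GRB2, LIMS1, RAB21 and RAB11FIP1 held AAGTTAA in their 3′ UTRs, and NCK1 and WASF2 held GACATAT; the part of those matches was not tested. Of 8 polarity and oxidase partners of RAC1, 2 fell under si-RAB23-1, and 2 rose and 1 fell under si-RAB23-9 (medians -0.21 and 0.082). PARD6B, of the polarity complex that TIAM1 joins, fell by 0.41 and 0.43 (limma adjusted p = 0.0152 and 0.0137), whereas its relative PARD6A rose by 0.71 under si-RAB23-9 (limma adjusted p = 0.0199).

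**Figure D4:**
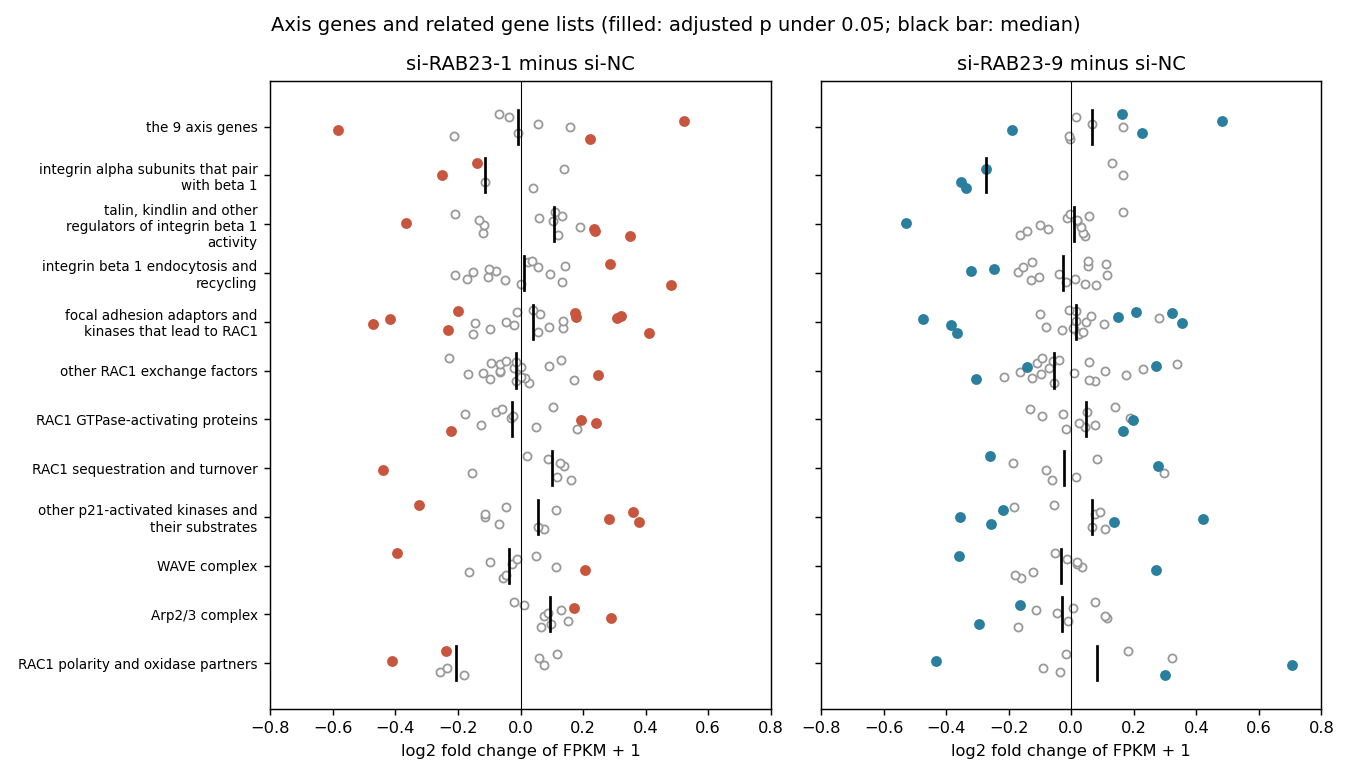
Difference in log2(FPKM + 1) against si-NC (x axis) of each tested gene of the 9 and of the 11 lists around them, 1 panel an siRNA; points are genes (filled where the adjusted p was under 0.05), black bars are medians and the vertical line is 0. The median of the alpha subunits is lowest under si-RAB23-9, at -0.27, and that of the polarity and oxidase partners lowest under si-RAB23-1, at -0.21.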

How the data were processed

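RNA-seq values for 58735 genes in 6 libraries came as 1 table of FPKM, which the authors deposited. Per the submitters' processing notes, the tools were FastQC, Trimmomatic 0.36, STAR 2.5.1b, RSEM 1.2.29 and edgeR 3.8.5, with build hg19 and no roles given; gene identifiers and coordinates matched GENCODE 29 on GRCh38 for all 58735 genes, and those coordinates are printed. FPKM times gene length gave whole multiples of 1 read within 0.01 for 100% of values, from which reads per library were recovered. Genes with at least 1 FPKM in at least 2 libraries were tested on log2(FPKM + 1), a pseudocount of 1 that understates changes of low genes, with limma 3.58.1 in R 4.3.3: 1 mean per group over all 6 libraries, a mean-variance trend, two-sided, Benjamini-Hochberg adjustment over the 14352 genes. The fit was tested on simulated data. In each list up to 4 called genes were named by the largest change against si-NC. The members, lists and heptamers were chosen with earlier results of these data known. Exon bases shared with other genes made up 0% of TIAM1, RAC1, VAV2, PAK2 and GIT1, and at most 14.8% (PAK1) of the others; 57.7% of RAB23 bases overlapped other genes. SPATA13, which stood on 2 identifiers, was left out of its list. Some pathway genes and 1 further list are not reported here.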

Additional observations from a re-analysis of the deposited data

Results flagged for a closer look

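At 4 of the 9 genes the change against si-NC differed between the siRNAs by limma's test of the difference itself, si-RAB23-9 minus si-RAB23-1 on the log2(FPKM + 1) scale. ITGB1 differed by 0.3958, with both siRNAs below si-NC. VAV2 differed by 0.2297 and GIT1 by 0.2344, both higher under si-RAB23-9. ARHGEF7 differed by -0.2289, higher under si-RAB23-1. The ITGB1 difference was called with any library left out, and the other 3 each lost the call without some.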

How the results depend on the processing

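With 2 libraries a group, the spread is poorly known. RAC1 with both siRNAs and ITGB1 under si-RAB23-1 kept direction and call under every alternative run, and no called change of a member reversed. Of 9 genes, 3 were called under si-RAB23-1, 4 under si-RAB23-9 and 4 between the siRNAs. Leaving out 1 library gave 2 to 3, 1 to 4 and 1 to 4. With si-RAB23-9 the count was 2 without the filter, 2 with a replicate block and 1 without a mean-variance trend; under si-RAB23-1 voom with sizes from medians of ratios gave 5. The replicate block gave 2, 2 and 4 called, where between the siRNAs ARHGEF7 lost the call (limma adjusted p = 0.0564) and DOCK1 gained it (limma adjusted p = 0.0474). Over the genes tested, same-numbered libraries did not deviate together (correlations -0.0562, -0.0158 and 0.0610). Such correlations cannot tell whether same-numbered libraries were handled together. ITGB1 under si-RAB23-9 had limma adjusted p = 0.0671 without the filter, 0.0562 with the block and 0.0779 without a trend. DOCK1 under si-RAB23-1 passed by voom (adjusted p = 0.00318 and 0.00525) and at a mean FPKM of at least 5 (limma adjusted p = 0.0428); PAK1 under si-RAB23-9 passed by voom (0.0222 and 0.0299). Over all genes, leaving out si-NC replicate 1 left 205 higher and 182 lower under si-RAB23-1, and leaving out si-NC replicate 2 left 173 and 165; leaving out si-RAB23-9 replicate 2 left 143 and 115 under si-RAB23-9. Without the filter, 543 and 506 of 35196 genes were called under si-RAB23-1 and 552 and 431 under si-RAB23-9; voom with library totals called 1872 and 1536 under si-RAB23-9. The cause of these shifts was not tested. Voom and the fit without a trend were added after seeing the data; the planned edgeR and DESeq2 fits were not run, since the table holds FPKM.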

Other observations

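CDC42 and ILK, widely expressed partners of this route, were at 0.168 to 0.363 and 0.709 to 1.02 FPKM and did not pass the filter. In the annotation 59.4% of CDC42 exon bases and 78.5% of ILK exon bases overlap exons of other genes, chiefly AL031281.2 on the same strand as CDC42 and TAF10 on the strand opposite to ILK; whether reads on shared bases were left out was not tested. RAB23 shares 57.7% of its exon bases, all with BAG2 on the opposite strand.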
